A study of Mus musculus with 4 samples.

Results

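The transcripts of 10 transcription factors of blood stem cell emergence were read in explants of the mouse aorta-gonad-mesonephros region (AGM), the embryonic tissue in which the first definitive blood stem cells arise. The genes Runx1, Gfi1, Gfi1b, Gata2, Tal1, Lyl1, Lmo2, Fli1, Erg and Myb were chosen by name, and they are 10 of the 49997 genes in each count table. Explants of C57BL/6J embryos were kept on a filter for 48 hours in a medium with hydrocortisone, either untreated (2 libraries) or with 5 µM CCCP (2 libraries), an uncoupler that dissipates the proton gradient across the inner mitochondrial membrane. All 4 libraries thus share the culture and the hydrocortisone, and there is no library of uncultured tissue. The growth protocol names E10.5 and E11.5 embryos, the design E10.5 alone, and no label gives the day of a library. No label says whether embryos were pooled or whether 2 libraries of a group came from separate cultures, so p-values measure only the spread between these libraries, which may be technical. The comparison asks which transcripts differ when mitochondrial activity is blocked during stem cell maturation.

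The labels give the cell type as embryonic stem cells of the blood and the design speaks of c-kit+ cells, whereas the extraction protocol describes RNA of whole explants. The marker transcripts were those of a mixed tissue. Ptprc, the pan-leukocyte antigen CD45, was read at 3.39 to 6.85 CPM, which are counts scaled to library size with TMM factors. Summed over each list in CPM, 10 endothelial markers stood at 580 to 751, 10 pan-blood markers at 123 to 132, 6 neural and sympathoadrenal markers at 634 to 781 and 7 urogenital markers at 152 to 241. The 6 hepatic markers stood at 1330 and 788 in the untreated libraries and at 3.46 and 62.1 in the CCCP libraries. Of the 4 mast cell markers, Tpsb2 had 0 counts in every library. In such bulk RNA, fewer cells of a type and less RNA per cell cannot be told apart.

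In the embryo, haemogenic endothelial cells of the aortic wall turn into blood cells that bud into the vessel lumen. Runx1, a runt-domain factor, is required for that transition, and Gfi1 and Gfi1b, zinc finger repressors under its control, shut down the endothelial programme. Gata2, Tal1, Lyl1, Lmo2, Fli1, Erg and Runx1 are known to bind many of the same enhancers in blood progenitors and to regulate each other's genes. Tal1 and Lyl1 are basic helix-loop-helix proteins, Lmo2 is a LIM-only bridging protein without DNA binding of its own, and Fli1 and Erg are ETS factors that endothelial cells also express. Myb is needed for definitive but not for primitive blood formation.

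Promoter sequences are given for 3 members. Runx1 is shown because its 2 start sites feed a single gene count. Gfi1, Gata2, Tal1 and Erg also have more than 1 start site for a single count. Gfi1b and Tal1 are among the members whose transcripts ranked the 4 libraries alike. Lyl1 and Lmo2 ranked them in the same order, but Lyl1 is not shown and Lmo2 had no promoter sequence to read. The sequences are from RefSeq on GRCm38.p6, the assembly that mm10 renders, each with 250 bases before and 50 bases after a start site, written 5′ to 3′ on the strand of the gene. Capitals mark matches, on either strand, to the motifs of the members' own families.
Runx1, upstream start, chr16:92826025-92826324, minus strand: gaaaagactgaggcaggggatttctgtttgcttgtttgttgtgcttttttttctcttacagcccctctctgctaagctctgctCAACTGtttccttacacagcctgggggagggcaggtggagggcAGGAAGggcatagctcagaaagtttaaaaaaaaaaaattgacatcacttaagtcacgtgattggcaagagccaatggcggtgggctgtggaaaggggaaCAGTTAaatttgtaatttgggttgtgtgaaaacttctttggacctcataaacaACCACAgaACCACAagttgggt
Runx1, downstream start, chr16:92697280-92697579, minus strand: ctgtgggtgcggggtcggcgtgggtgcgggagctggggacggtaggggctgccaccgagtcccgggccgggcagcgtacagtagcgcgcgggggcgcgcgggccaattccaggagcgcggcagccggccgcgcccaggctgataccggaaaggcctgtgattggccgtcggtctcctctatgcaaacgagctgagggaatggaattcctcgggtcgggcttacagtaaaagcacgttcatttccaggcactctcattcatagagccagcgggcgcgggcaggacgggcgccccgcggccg
Gfi1b, chr2:28621933-28622232, minus strand: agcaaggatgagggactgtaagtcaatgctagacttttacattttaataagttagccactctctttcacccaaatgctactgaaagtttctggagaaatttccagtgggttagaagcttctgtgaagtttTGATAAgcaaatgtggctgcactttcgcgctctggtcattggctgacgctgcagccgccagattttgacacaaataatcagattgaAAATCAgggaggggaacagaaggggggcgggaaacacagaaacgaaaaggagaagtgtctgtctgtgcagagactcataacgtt
Tal1, upstream start, chr4:115056176-115056475, plus strand: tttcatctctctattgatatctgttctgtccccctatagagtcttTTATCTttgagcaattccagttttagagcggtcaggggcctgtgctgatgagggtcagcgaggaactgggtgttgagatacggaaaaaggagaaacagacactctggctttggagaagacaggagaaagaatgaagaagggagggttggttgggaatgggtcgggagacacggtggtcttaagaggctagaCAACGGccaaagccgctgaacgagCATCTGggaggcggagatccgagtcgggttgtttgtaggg
For RUNX factors the motif was TGTGGT, or with its variant base TGCGGT. For GATA factors it was AGATAA, with TGATAA as the other form. ETS factors were searched as CGGAAG, with AGGAAG as the other form. The E-box of Tal1 and Lyl1 was searched as CAGATG, with CAGCTG as the other form. GFI factors were searched as AAATCA. MYB factors were searched as TAACNG, with CAACNG as the other form. The upstream window of Runx1 held 2 RUNX matches, both past the start site, 1 ETS match and 2 MYB matches, and the downstream window held none of the motifs. The Gfi1b window held 1 GATA match and 1 GFI match. The upstream Tal1 window held 1 GATA, 1 MYB and 1 E-box match, and its downstream window, not shown, held none of the motifs. The Lyl1 window, not shown, held 1 ETS match and no GATA match. No matches overlapped in any of the 14 windows of the 8 members in the table. Of all 32851 promoter windows of that length, 22.4% held a RUNX match, 18.6% a GATA match, 46.5% an ETS match, 30.6% an E-box match, 14.0% a GFI match and 49.7% a MYB match. Among the 14 member windows the numbers with a match were 1, 3, 4, 3, 1 and 3 in that order, and a match is a description of letters and not of binding.

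Read per kilobase of exon, Erg, Lmo2 and Fli1 were the most abundant of the 10 transcripts and Gfi1 the least. In the untreated libraries the mean levels were 6.68 ± 0.666 CPM per kb for Erg, 6.53 ± 1.53 for Lmo2 and 5.84 ± 0.78 for Fli1 (SD, n = 2), and the ranges of neighbours in that order overlapped. Gata2 (3.33 ± 0.2), Tal1 (3.07 ± 0.505) and Lyl1 (2.51 ± 0.161 CPM per kb, SD, n = 2) came next, with Gata2 below the range of Fli1, Gata2 and Tal1 overlapping, and Lyl1 below the range of Tal1 but overlapping Runx1. Runx1 (2.02 ± 0.994), Gfi1b (1.57 ± 0.597) and Myb (1.29 ± 0.633 CPM per kb, SD, n = 2) followed with overlapping ranges. In the CCCP libraries the order was Lmo2, Fli1, Erg, Gata2, Tal1, Lyl1, Gfi1b, Runx1, Myb and Gfi1. Neighbours there were separate only between Erg and Gata2, between Runx1 and Myb, and between Myb and Gfi1.

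The length of Erg needed care in that order. Its row in the tables spans chromosome 16 and an alternate contig of that chromosome, and the length of 7620 bases in the files adds both copies, so the 4163 exon bases on chromosome 16 were used. Reads that align equally well to both copies would be dropped as multi-mapping if the contig was part of the aligned genome, which is not given in the sources used here. The level of Erg may therefore be too low. The other 9 members are each placed on a single contig.

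**Figure D1:**
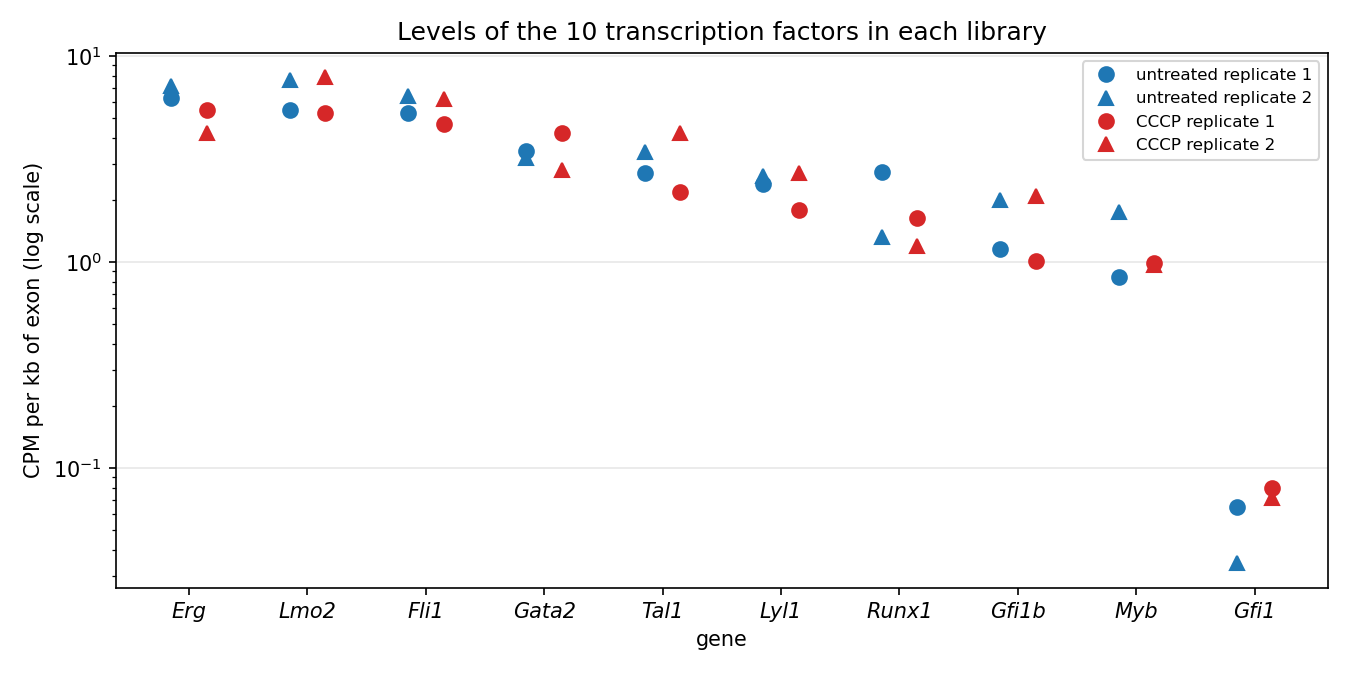
Level of each of the 10 transcription factors in CPM per kilobase of exon (log axis), with a point for each library, blue for untreated and red for CCCP, circles for replicate 1 and triangles for replicate 2. Genes are ordered by their untreated mean, from Erg at 6.68 to Gfi1 at 0.0494, and the triangles lie above the circles in both groups for Lmo2, Fli1, Tal1, Lyl1 and Gfi1b and below them for Gata2, Runx1 and Gfi1.

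None of the 9 factors tested passed between CCCP and untreated explants, and Gfi1 was not tested. In edgeR (quasi-likelihood, p-values adjusted by Benjamini and Hochberg over 19837 genes), 0 of the 9 members tested had an adjusted p-value under 0.05. The share of all genes was also 0%, while 14.6% of all genes and 1 of the 9 members, Erg, had an unadjusted p under 0.05 (9.16% of all genes in the direction of Erg, lower). With the replicate number as a block 10.7% of all genes passed and still 0 of 9 members, and in DESeq2 3.32% of the genes with an adjusted p passed and 0 of 9 members. The CCCP and untreated libraries did not overlap for 1 of 9 members, against 48.8% of all genes. The log2 fold change was below 0 for 6 of 9 members, against 50.8% of all genes, and the median was -0.11 against -0.0077. The 95% intervals of the log2 fold changes were wide, the narrowest being -0.91 to -0.01 for Erg and the widest -1.4 to 0.38, -1.35 to 0.54 and -1.17 to 1.12 for Runx1, Myb and Gfi1b.

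**Figure D2:**
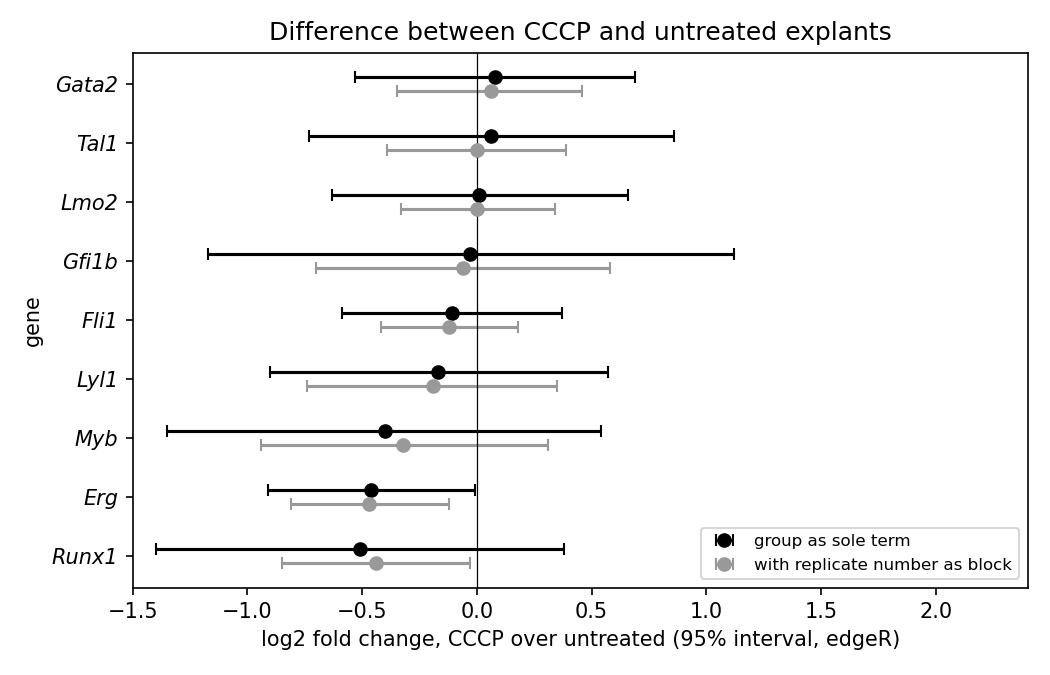
Log2 fold change of CCCP over untreated for the 9 members tested, with 95% intervals from edgeR, black with the group as the sole term and grey with the replicate number as a block. With the group alone only the interval of Erg, -0.91 to -0.01, leaves out 0, and with the block those of Erg and Runx1 do.

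Erg (chromosome 16, 95359169 to 95586600 on mm10) is an ETS factor that endothelial cells and blood stem cells both need. Among the 9 members tested, it alone had groups that did not overlap. It stood at 25.9 and 29.8 CPM in untreated replicates 1 and 2 and at 22.8 and 17.6 CPM in CCCP replicates 1 and 2. Both CCCP libraries were thus below both untreated ones, a pattern shown by 24.8% of all genes. The log2 fold change was -0.46 (SE 0.183), with an edgeR p of 0.045 and an adjusted p-value of 0.334. The difference was -0.18 between the libraries numbered 1 and -0.76 between those numbered 2, so that CCCP replicate 2 carried most of it. Without that library the log2 fold change was -0.28 in edgeR, with an adjusted p-value of 0.91. With the replicate block the value was -0.47 (SE 0.159) and the edgeR adjusted p-value 0.0764.

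Fli1 (chromosome 9, 32422204 to 32543432), the ETS relative of Erg, did not show that difference. It stood at 22.3 and 26.9 CPM in the untreated and at 19.6 and 26.0 CPM in the CCCP libraries, and its log2 fold change of -0.11 had an interval of -0.59 to 0.37 (edgeR adjusted p 0.823) and changed sign with the GC trend removed. The ratio of Erg to Fli1 per kilobase was 1.18 and 1.12 in the untreated libraries, 1.18 in CCCP replicate 1 and 0.686 in CCCP replicate 2. A shift of Erg relative to Fli1 was therefore seen in 1 of the 2 CCCP libraries. The endothelial list itself had 7 of 10 markers lower with CCCP, 0 of them past the test, and a median log2 fold change of -0.14, which turned to 0.11 when untreated replicate 2 was left out and was -0.35 when untreated replicate 1 was. With the replicate block 2 of the 10 passed in edgeR, both lower, Flt1 (adjusted p 0.013) and Tek (adjusted p 0.0471), named here after their values were seen. Set against the mean log2 level of the 10 endothelial markers, Erg was again lower in both CCCP libraries, by -0.98 and -1.32 against -0.73 and -0.96 on the log2 scale, a pattern that 10.7% of all genes showed, while 33.1% lay higher. Of the 9 members it alone was separated on that scale, and against the 10 pan-blood markers no member separated, while 13.2% of all genes lay lower and 34.3% higher by that reading.

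Runx1 (chromosome 16, 92601466 to 92826074) had the lowest fold change of the members and rested on a single library. It stood at 20.1 and 9.71 CPM in untreated replicates 1 and 2, on 1005 and 363 counts, and at 12.1 and 8.88 CPM in CCCP replicates 1 and 2. Untreated replicate 1 was high, 2.07 times the other untreated library, and the groups overlapped. The log2 fold change was -0.51 (SE 0.367), with an interval of -1.4 to 0.38 and an edgeR adjusted p-value of 0.538. Without untreated replicate 1 it turned to 0.12, and without untreated replicate 2 it was -0.90. Within numbers it was -0.74 for replicate 1 and -0.13 for replicate 2. The replicate block gave -0.44 (SE 0.191), and its edgeR adjusted p-value was 0.151.

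Fold changes moved with gene structure in these libraries. Across genes, log2 fold changes went with exon length (Spearman's rho -0.36) and with GC content (rho 0.37), and genes are not independent replicates. Runx1 has 7378 exon bases, the most of the 10 members, and a GC content of 46.4%. Once the trend with length was taken out of every library, its log2 fold change was -0.30, and with the GC trend removed it was -0.44. Erg kept -0.43 and -0.53 under these corrections.

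Gfi1 (chromosome 5, 107716655 to 107725805) was close to the limit of detection. It had 10 and 4 counts in the untreated and 12 and 8 in the CCCP libraries, or 0.2, 0.107, 0.247 and 0.221 CPM, with exact Poisson 95% intervals of 0.0958 to 0.367, 0.0291 to 0.274, 0.128 to 0.432 and 0.0952 to 0.435. Both CCCP libraries were above both untreated ones, and all 4 intervals overlap. The intervals cover counting error only and are not a test between groups, so no difference is read from these counts. A count of 3 corresponds to 0.0599 to 0.0827 CPM. Gfi1 did not pass the filter on low counts and was the 1 member of 10 left out of the test.

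Gfi1b (chromosome 2, 28609450 to 28621982), the paralog that acts alongside Gfi1 in the embryo and is best known in red cell and platelet precursors, was read at 12.6 to 58.0 times the level of Gfi1 per kilobase. It stood at 2.1 and 3.64 CPM in the untreated and at 1.83 and 3.8 CPM in the CCCP libraries. Replicate 2 was the higher library in each group and the groups overlapped, at a log2 fold change of -0.03 with an interval of -1.17 to 1.12 (edgeR adjusted p 0.987). Its exons share 134 bases with a predicted gene on the other strand, where reads were not assigned because strand was not used.

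Tal1 (chromosome 4, 115056426 to 115071755), a master regulator of blood specification from mesoderm, stood at 2.71 and 3.42 CPM per kb in the untreated and at 2.19 and 4.23 CPM per kb in the CCCP libraries, on 711, 671, 558 and 804 counts. The CCCP libraries held both the lowest and the highest value. Its log2 fold change was 0.06 (interval -0.73 to 0.86, edgeR adjusted p 0.942) and turned negative with the GC trend removed. It was -0.31 between the libraries numbered 1 and 0.30 between those numbered 2. A predicted gene on the other strand shares 250 of its 5239 exon bases.

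Lmo2 (chromosome 2, 103957903 to 103981878), which links Tal1 to GATA factors, was the most even between groups. It stood at 14.0 and 19.6 CPM untreated and at 13.6 and 20.3 CPM with CCCP. The log2 fold change was 0.01, with an interval of -0.63 to 0.66 (edgeR adjusted p 0.99), and its sign turned without TMM scaling and with the length or the GC trend removed. Lyl1 (chromosome 8, 84701423 to 84704716), the paralog that can stand in for Tal1 in adult stem cells, stood at 4.39 and 4.81 CPM untreated and at 3.28 and 4.93 CPM with CCCP. CCCP replicate 1 was the low library, and the log2 fold change was -0.17 (interval -0.9 to 0.57, edgeR adjusted p 0.819), or -0.30 with the length and -0.35 with the GC trend removed. Lmo2 and Lyl1 share 3 and 5 exon bases with neighbouring genes. Tal1 was read at 1.13 and 1.31 times Lyl1 per kilobase in the untreated and at 1.23 and 1.57 times in the CCCP libraries.

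Gata2 (chromosome 6, 88193891 to 88207032), a GATA factor needed for stem cell formation in the aorta, stood at 11.6 and 10.7 CPM in the untreated libraries and at 14.2 and 9.4 CPM with CCCP. The untreated values lay between the CCCP values. Its log2 fold change was 0.08 with an interval of -0.53 to 0.69 (edgeR adjusted p 0.902), and it changed sign with the GC trend removed. The ratio of Runx1 to Gata2 per kilobase was 0.783 in untreated replicate 1 and 0.386 to 0.429 in the other 3 libraries.

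Myb (chromosome 10, 21124930 to 21160984) marks definitive progenitors. It stood at 3.2 and 6.58 CPM in untreated replicates 1 and 2 and at 3.73 and 3.64 CPM in the CCCP libraries. Untreated replicate 2 was high, by a factor of 2.06, and the other 3 libraries were close together. The log2 fold change of -0.40 had an interval of -1.35 to 0.54 (edgeR adjusted p 0.645), and without untreated replicate 2 it was 0.24. Runx1 and Myb, the pair with the lowest fold changes after Erg is set aside, thus each drew theirs from a different untreated library.

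More members lay apart by replicate number than by treatment, a difference of counts that was not tested. For 7 of the 9 members tested the libraries numbered 2 lay on the same side of those numbered 1 in both groups, against 36.1% of all genes. Of these, 5 were higher in both libraries numbered 2 (17.7% of all genes): Tal1, Lyl1, Lmo2, Fli1 and Gfi1b. Runx1 and Gata2 were lower in both (18.4% of all genes). Gfi1b was 1.73 times higher in replicate 2 than in replicate 1 among the untreated and 2.07 times among the CCCP libraries, Tal1 1.26 and 1.93 times, and Lmo2 1.4 and 1.49 times. Runx1 was 2.07 times higher in replicate 1 among the untreated and 1.36 times among the CCCP libraries, and Gata2 1.09 and 1.51 times. Total counts moved with the number as well, at 48216849 and 48827826 for replicate 1 and 37360968 and 37579087 for replicate 2, and no label says what a number marks.

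**Figure D3:**
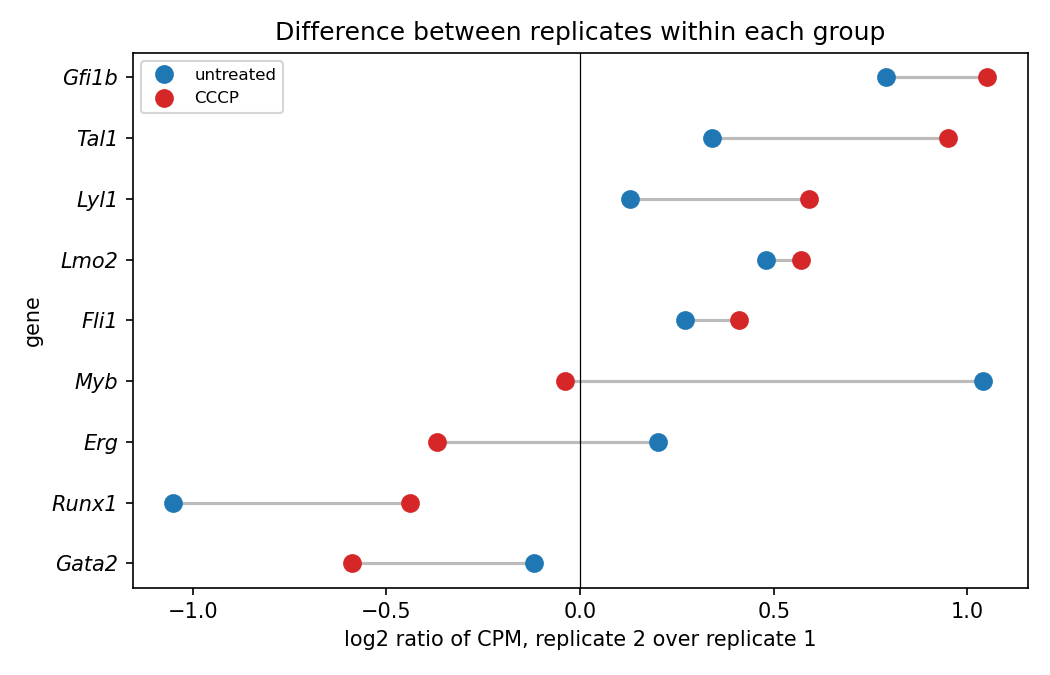
Log2 ratio of CPM of replicate 2 over replicate 1 for the 9 members tested, blue in the untreated and red in the CCCP group, with a line joining the pair. Both points lie right of 0 for Gfi1b, Tal1, Lyl1, Lmo2 and Fli1 and left of 0 for Runx1 and Gata2, while Erg and Myb have a point on each side.

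Among the marker lists the urogenital and the mast cell list were also apart by number. Summed urogenital markers stood at 241 and 221 CPM in the libraries numbered 1 and at 153 and 152 CPM in those numbered 2, the same side as Runx1 and Gata2. Summed mast cell markers, nearly all of it Kit, stood at 51.3 and 47.6 CPM in the libraries numbered 1 and at 63.4 and 51.8 CPM in those numbered 2. Summed erythroid markers, most of it the globin transcript Hbb-y at 1400 to 2230 CPM, overlapped by number. They stood at 1880 and 2110 CPM in the libraries numbered 1 and at 2030 and 2890 CPM in those numbered 2. The macrophage sum was 161 to 235 CPM in all 4 libraries. Gata1, an erythroid and megakaryocytic relative of Gata2 picked out here after its values were seen, had 3.26 and 4.52 CPM untreated and 1.73 and 6.89 CPM with CCCP, and so the same order of the 4 libraries as Tal1, Lyl1, Lmo2 and Gfi1b. The share of all genes with that order was not counted. Neither the summed erythroid nor the summed megakaryocyte markers kept that order. The megakaryocyte sums were 66.8 and 47.6 CPM untreated and 24.4 and 55.7 CPM with CCCP. Between the groups, 6 of 6 megakaryocyte markers were lower with CCCP (median log2 fold change -0.56). Of the erythroid markers 7 of 8 were higher (0.33), and of the macrophage markers 5 of 8 (0.18). With a library left out the medians ran from -1.53 to -0.14 (megakaryocyte), 0.09 to 0.64 (erythroid) and -0.07 to 0.49 (macrophage). In edgeR 0 of these markers passed. With the replicate block 1 megakaryocyte marker passed as lower, and 2 erythroid and 2 macrophage markers as higher, against 10.7% of all genes in either direction. The part of these cell types, and of the hepatic cells whose markers also differed between the groups, in the members' values was not tested.

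Proteins that work with the 10 factors were read from a list of 20 partners and cofactors. None passed in edgeR (0 of 20), 13 were higher and 7 lower, and the median log2 fold change was 0.10 against -0.0077 for all genes. The CCCP libraries lay above the untreated for 9 of them (24% of all genes) and below for 5 (24.8%). The histone deacetylase Hdac1, which corepressor complexes of Gfi1 and Gfi1b carry, had 105 and 127 CPM untreated and 143 and 152 CPM with CCCP (log2 fold change 0.35, edgeR adjusted p 0.326). Id3, an inhibitor of the E proteins that pair with Tal1 and Lyl1, had 96.3 and 129 CPM untreated and 146 CPM in both CCCP libraries (0.37, edgeR adjusted p 0.359). The acetyltransferases Ep300 and Crebbp were on the low side, at -0.36 and -0.37 on the log2 scale, with edgeR adjusted p-values of 0.278 and 0.371. With the length trend removed these became -0.12 and -0.05, and the 0.37 of Id3 became 0.19. Cbfb, the non-DNA-binding partner of Runx1, was read at 114 and 129 CPM untreated and 124 and 141 CPM with CCCP, and the ratio of Runx1 to Cbfb per kilobase was 0.0693 in untreated replicate 1 and 0.0248 to 0.0385 in the other libraries.

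Relatives with the same DNA-binding or LIM domains were as mixed. Of 19, 17 were tested, 9 were higher and 8 lower, with a median log2 fold change of 0.0094, and 0 passed in edgeR. Mybl1, a relative of Myb best known from germ cells, had the smallest p. It stood at 13.4 and 17.2 CPM untreated and at 6.65 and 7.86 CPM with CCCP, so that the groups did not overlap, at log2 fold change -1.08 (SE 0.221), adjusted p 0.179 in edgeR. With the replicate block its edgeR adjusted p-value was 0.00304 and in DESeq2 0.00369, while with the GC trend removed as well as the block it was 0.0663. Runx3 had a log2 fold change of -0.57 on 0.577 to 1.06 CPM (edgeR adjusted p 0.606). On the high side were Lmo4 (0.36, edgeR adjusted p 0.335) and Lmo1 (0.37, edgeR adjusted p 0.641), LIM-only relatives of Lmo2.

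Other blood transcription factors gave no call either. All 16 were tested, 6 were higher and 10 lower, and the median was -0.027. Cebpa and Spi1, factors of the myeloid lineage, had log2 fold changes of 0.40 and 0.42 (edgeR adjusted p 0.425 and 0.471), with CCCP libraries above the untreated in both cases, and of 0.21 and 0.25 with the GC trend removed. Spi1 stood at 4.63 and 3.85 CPM untreated and at 5.71 and 5.65 CPM with CCCP. Hlf, a factor of stem cell maintenance, and Hhex had values of -0.44 and -0.26 (edgeR adjusted p 0.474 and 0.664).

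Genes reported as targets of the 10 factors leaned low. Of 18, 14 were lower and 4 higher, with a median of -0.20, and 0 passed in edgeR. With the replicate block 3 passed in edgeR, all lower, against 6.88% of all genes called lower. They were Ptprc and, likewise outside the naming rule, Tek (adjusted p 0.0471), an endothelial receptor kinase, and Bcl2 (adjusted p 0.0455), which blocks cell death. Ptprc stood at 6.85 and 6.82 CPM untreated and at 3.65 and 3.39 CPM with CCCP (log2 fold change -0.96, edgeR adjusted p 0.216, or 0.0211 with the block). Removal of the GC trend in the blocked fit gave -0.61, with an adjusted p of 0.145 (edgeR). Spn, the leukocyte sialoglycoprotein CD43, stood at 1.26 and 1.07 CPM untreated and at 0.206 and 0.496 CPM with CCCP, with log2 fold change -1.75 and adjusted p 0.284 in edgeR. Vwf, the endothelial and platelet clotting factor, was among the 4 on the high side, at a log2 fold change of 0.08 that turned negative with the GC trend removed (edgeR adjusted p 0.763). The pan-blood markers as a whole were even, with 5 of 10 higher, 5 lower and a median of -0.042, although they include both Ptprc and Spn.

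**Figure D4:**
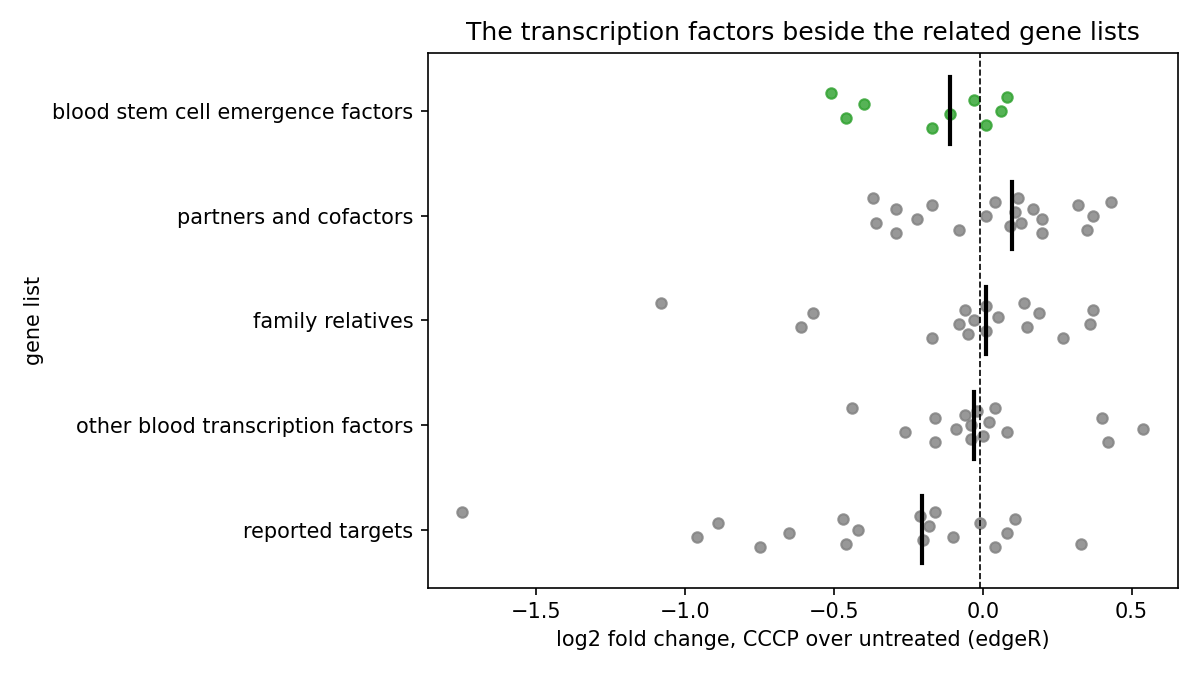
Log2 fold change of CCCP over untreated (edgeR) for each tested gene of the 10 factors, green, and of the 4 related lists, grey, with a bar at the median of each and a dashed line at the median of all genes. The medians run from -0.20 for the reported targets to 0.10 for the partners and cofactors, that of the factors is -0.11, and the lowest single points are Spn at -1.75 and Mybl1 at -1.08.

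Genes of the 4 lists were ranked by how near their profile over the 4 libraries came to that of Runx1, as the root mean square difference of centred log2 CPM. Of 71 candidates the nearest was Cbfa2t3, the corepressor ETO2 of Tal1 complexes, at a difference of 0.153, with 45.0 and 27.7 CPM untreated and 35.7 and 23.7 CPM with CCCP. Lmo3 (0.203) and Crebbp (0.247) followed. Over all 19837 genes, 222 were at least as near to Runx1 as Cbfa2t3 was, 530 as Lmo3 and 958 as Crebbp, and 4 libraries allow no firmer reading. Nearest to the mean profile of the 9 members were Tcf12 (0.0329), an E protein partner of Tal1, Eng (0.0388), an endothelial TGF-beta co-receptor, and Kit (0.0501), the receptor for stem cell factor. Of all 19837 genes, 34, 57 and 124 in that order were at least as near. The mean joins members that went opposite ways by replicate number.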

How the data were processed

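Poly(A) RNA of 4 AGM explant libraries was sequenced, with treatment read from each title. The authors deposited unnormalized counts for every gene, made with featureCounts 2.0.3 from exons of the mm10 RefSeq annotation (per the file headers). Counting ignored strand, while the protocol describes directional libraries. Read pairs, multi-mapping reads and reads touching more than 1 gene had no option set in the headers, so each read of a pair counted singly and shared reads were dropped. The submitters' processing notes name FastQC, HISAT2, SAMtools and Subread. No row lacked a gene name.

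Counts were tested with edgeR 4.0.16 in R 4.3.3 (TMM, filterByExpr with minimum count 10 and minimum total 15, glmQLFit and glmQLFTest with the group as the sole term, two-sided), with Benjamini-Hochberg adjustment over all genes tested and a threshold of 0.05. The script was tested on simulated data. A standard error is the log2 fold change divided by the square root of F, and CPM used TMM factors (0.966 to 1.039). With 2 libraries a group the smallest exact permutation p is 0.333 (two-sided), and none is given. Alternatives were DESeq2 1.42.0, other scalings, no filter, removal of length or GC trends (lowess, span 0.3, GC from GENCODE M21 transcripts, known for 90.4% of the genes tested), each library left out, and the replicate number as a block. Genes on an alternate contig were placed on the chromosome. Named genes are the 10 members, the 2 smallest p-values in each direction in each of 4 related lists, and the 3 list genes nearest to Runx1 and to the mean member profile. A gene this rule names among the reported targets is not reported here. The members and lists were chosen with earlier results of these data known. Intervals on counts and the floor of 3 counts cover counting error only.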

Additional observations from a re-analysis of the deposited data

How the results depend on the processing

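No member passed under any of the 13 alternatives. With 2 libraries a group, log2 differences inside the intervals given for each member cannot be seen, and Gfi1 was limited by its counts. Over all genes the number called was 0, but 594 in DESeq2, 1107 without the filter, 2118 with the replicate block, which became 1561 after removal of the length trend and 775 after removal of the GC trend, and 10 to 46 with a library left out, where the lone library of a group is assumed to vary like the others. The cause was not tested. Within the 4 related lists the block called Mybl1, Ptprc, Tek and Bcl2. With the GC trend removed as well Mybl1 and Ptprc no longer passed, and Tek and Bcl2 were not read under that setting. Deviations from the group mean went together in libraries of one number (correlation 0.36, across 19837 genes), but no label ties them, so the block is an alternative only.

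Members not overlapping between groups were 1 lower and 0 higher. Without the filter, which admits Gfi1, 1 was higher, with the length trend removed, with or without the replicate block, 2 were lower, and with a library left out 2 to 6 were lower and 0 to 4 higher, since fewer libraries overlap less often. Relative to the endothelial list 4 of 9 members were lower (3 to 8 with a library left out), and relative to the pan-blood list 3 (5 with the length or the GC trend removed, 2 to 7 with a library left out). List medians ran from -0.07 to 0.06 (family relatives), -0.11 to 0.046 (other blood factors), 0.043 to 0.16 (partners) and -0.34 to -0.06 (targets) with a library left out. The median of the other blood factors was 0.06 with the length trend removed and 0.08 with the block as well, and that of the partners 0.041 without scaling.

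Signs turned with a library left out for Runx1 (-0.9 to 0.12), Myb (-0.83 to 0.24), Tal1 (-0.47 to 0.47), Gata2 (-0.24 to 0.35), Lmo2 (-0.29 to 0.3), Gfi1b (-0.63 to 0.45), Fli1 (-0.32 to 0.09), Lyl1 (-0.48 to 0.11), Cbfa2t3 (-0.61 to 0.12), Eng (-0.21 to 0.025), Lmo1 (-0.06 to 0.72) and Lmo3 (-0.42 to 0.2). With the GC trend removed they turned for Fli1 (0.026), Gata2 (-0.08), Lmo2 (-0.11), Tal1 (-0.039), Lmo3 (0.06) and Vwf (-0.07), and with the replicate block and the GC trend removed to 0.02, -0.11, -0.12, -0.1, 0.07 and -0.07. With the length trend removed they turned for Lmo2 (-0.07), Cbfa2t3 (0.025), Lmo3 (0.023) and Tcf12 (0.08), and with the replicate block as well to -0.08, 0.019, 0.03 and 0.09. Lmo2 was -0.046 without scaling. Erg kept its sign in every alternative.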
